A study of Mus musculus with 108 samples.

Results

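Active enhancer chromatin that was present in the liver of young mice, absent in old mice on standard diet and present in old mice under caloric restriction was located and described. The livers of female C57BL/6 mice had been fixed in formalin and embedded in paraffin, and their chromatin was profiled by ChIP-seq for H3K4me3, H3K27me3, H3K27ac and H3K4me1. The 3 groups analysed were SD 3m (8 mice of 3 months on standard diet), SD 12m (8 mice of 12 months on the same diet) and CR 12m (9 mice of 12 months whose calories were reduced by 30%), and SD 6m was not analysed here. For each group the authors merged the libraries of all mice and gave each 200 bp bin 1 of 8 chromatin states, so every group had 1 segmentation, no difference could be set against the spread between mice, and no test was made. The intervals below are 95% Wilson intervals, which cover counting error only and treat neighbouring bins as independent, which they are not.

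The regions were chosen by their state labels alone. A bin was taken when it lay on an autosome, was in state 3 or 4 in both SD 3m and CR 12m, and was in state 8 in SD 12m. In all, 48203 bins met this rule, out of 13168874 bins in a segmentation and 2045585 autosomal bins in state 3 or 4 in SD 3m. Adjacent bins were merged into 6377 stretches that covered 9.64 Mb. These bins and stretches are called SD-only losses below, and bins in state 3 or 4 are called active enhancer bins. Where a gene is said to have lost bins, SD-only bins are meant, and bins lost in both groups are not among them. The mirror image, lost in CR 12m and active in the other groups, is called CR-only loss.

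Enhancers are stretches of DNA at a distance from promoters that bind transcription factors and raise the transcription of their target genes. Their nucleosomes carry H3K4me1, and those of active enhancers also carry H3K27ac, whereas H3K4me3 marks promoters and H3K27me3 marks chromatin silenced by Polycomb. In the 8-state model, states 3 and 4 have enhancer signatures, with state 4 the weaker of the pair, state 5 has a poised signature, states 1 and 2 mark transcription start sites (TSS), and state 8, quiescent chromatin, has none of the marks. Enhancers of hepatocytes, the main cells of the liver, bind FOXA, HNF4, HNF1, C/EBP and nuclear receptors. The TSS of the hepatocyte markers Alb, Apoa1, Ttr, Hnf4a and Cps1 were in states 1 to 4 in all 3 groups. None of these genes had an SD-only loss. An SD-only stretch was found at 21.6% of all genes with active enhancer bins, so having none was the common case. State 4, the source of 98.9% of the SD-only bins, held 0 (Hnf4a) to 46 (Ttr and Cps1) bins of SD 3m near these markers.

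The longest SD-only losses show what the rule picks up, and a single bin of each of the 6 longest is given as sequence. From each stretch the bin with the most matches to 12 short motifs of liver, circadian, inflammatory and general transcription factors was taken, so these bins are richer in matches than their stretches. Sequences are from RefSeq GRCm38.p6, the assembly that mm10 represents, plus strand, 5′ to 3′, with matches on either strand in capitals.
In Eprs, chr1:185403801-185404000: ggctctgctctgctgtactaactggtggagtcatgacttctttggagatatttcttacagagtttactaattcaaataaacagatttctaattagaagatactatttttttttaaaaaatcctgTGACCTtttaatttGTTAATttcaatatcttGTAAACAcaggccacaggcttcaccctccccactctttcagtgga
In Kmt2c, chr5:25277201-25277400: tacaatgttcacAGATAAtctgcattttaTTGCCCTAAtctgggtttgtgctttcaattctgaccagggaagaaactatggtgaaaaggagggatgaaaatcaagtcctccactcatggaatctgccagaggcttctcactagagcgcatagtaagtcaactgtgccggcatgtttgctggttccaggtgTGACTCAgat
Upstream of Tmem267, chr13:119473201-119473400: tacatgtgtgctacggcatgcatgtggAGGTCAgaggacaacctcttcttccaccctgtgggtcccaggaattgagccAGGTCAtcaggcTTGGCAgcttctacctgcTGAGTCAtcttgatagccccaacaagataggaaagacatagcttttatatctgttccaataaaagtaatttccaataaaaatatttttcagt
Upstream of Gm40376, chr12:32655001-32655200: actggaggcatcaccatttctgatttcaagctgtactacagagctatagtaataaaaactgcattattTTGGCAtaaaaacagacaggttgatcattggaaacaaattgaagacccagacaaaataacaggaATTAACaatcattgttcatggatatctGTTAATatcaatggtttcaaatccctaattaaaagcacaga
In Birc6, chr17:74685401-74685600: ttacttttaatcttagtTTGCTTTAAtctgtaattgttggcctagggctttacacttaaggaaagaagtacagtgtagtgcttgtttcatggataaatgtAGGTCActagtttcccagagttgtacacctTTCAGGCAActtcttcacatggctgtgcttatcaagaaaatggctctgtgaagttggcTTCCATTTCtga
In Trip12, chr1:84744001-84744200: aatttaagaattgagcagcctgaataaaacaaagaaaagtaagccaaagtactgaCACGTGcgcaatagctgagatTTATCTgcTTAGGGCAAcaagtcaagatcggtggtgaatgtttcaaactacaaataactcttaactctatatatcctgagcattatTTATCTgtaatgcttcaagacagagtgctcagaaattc

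The bin in Eprs held 1 match each to the FOXA motif TGTTTAC, the HNF1 motif GTTAAT and the nuclear receptor motif AGGTCA. The bin in Kmt2c held the C/EBP motif TTGCNNNAA, the AP-1 motif TGACTCA and the GATA motif AGATAA. Upstream of Tmem267, 2 nuclear receptor matches lay close to the NFI motif TTGGCA and an AP-1 match, in a bin of which 67.5% of the bases were marked as repeats. The bin upstream of Gm40376 was 79.5% repeat and held 2 HNF1 matches and 1 NFI match. The Birc6 bin, almost free of repeats (1%), held 2 C/EBP matches, and the Trip12 bin held the E box CACGTG. Over whole stretches the mean was 0.628 to 1.02 matches per bin.

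The longest stretch was 16.6 kb (chr1:185399401-185416000) and lay inside Eprs, the gene of an aminoacyl-tRNA synthetase, 34.1 kb from the nearest TSS, that of the lncRNA gene 9630028B13Rik. All 83 of its bins were in state 4 in both SD 3m and CR 12m. A 15.6 kb stretch (chr5:25274801-25290400) lay in Kmt2c, which encodes an H3K4 methyltransferase that acts at enhancers, with Galnt11 as the gene of the nearest TSS. Next came 14.8 kb (chr13:119472201-119487000) that ended next to the promoter of Tmem267 and lay mostly in 4833420G17Rik, where a TSS state followed in all 3 groups within 1 kb of the lost stretch. The 13.2 kb stretch upstream of Gm40376 (chr12:32654401-32667600) overlapped no gene. In Birc6, which encodes a ubiquitin ligase that inhibits apoptosis, a whole active stretch of SD 3m of 13 kb (chr17:74683801-74696800) was lost. Of the 10 longest, 9 were in state 4 in every bin of SD 3m and of CR 12m, the exception being the stretch near Zfp648 with 2 bins in state 3.

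**Figure D1:**
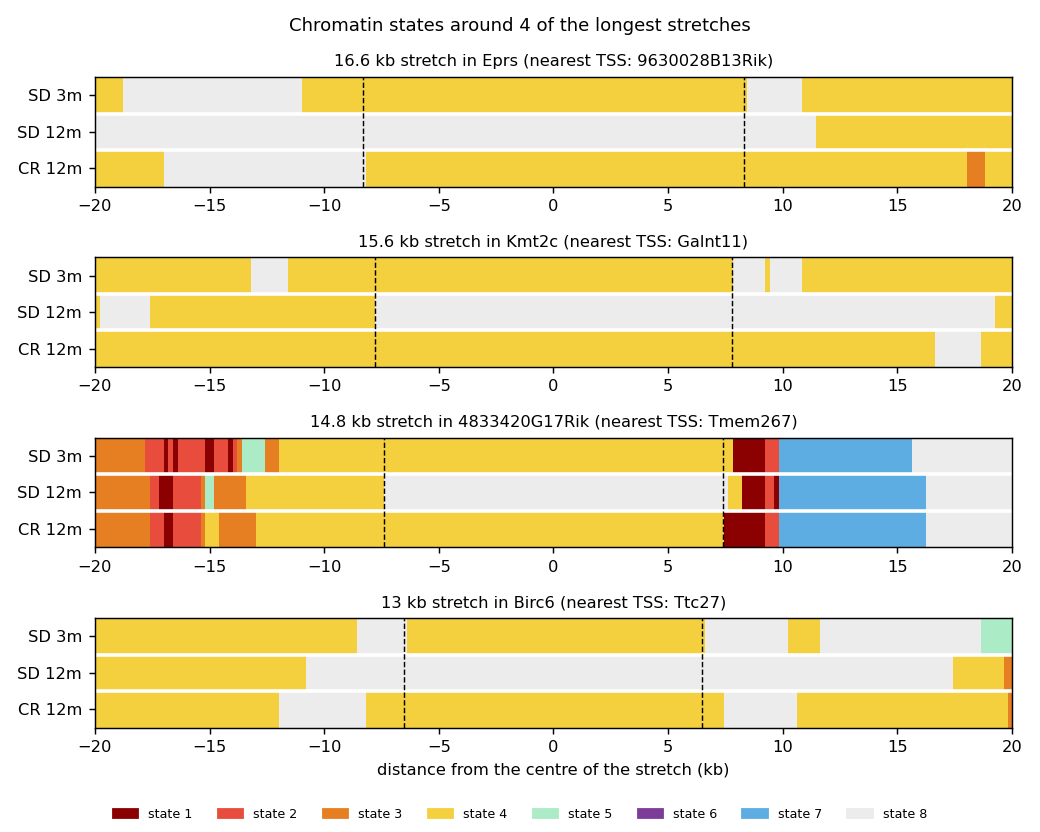
Chromatin states of each 200 bp bin (colours) in SD 3m, SD 12m and CR 12m against the distance in kb from the centre of 4 of the longest stretches, whose ends are dashed lines. Within the dashed lines SD 12m is in state 8 and the other groups are in state 4, and in Kmt2c the state 4 of SD 12m reaches up to the left end of the lost stretch.

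The loss fell on state 4. Of the SD-only bins 98.9% (98.8 to 99.0) had been in state 4 in SD 3m, and 96.5% were in state 4 in both SD 3m and CR 12m. Against the bins available, 5.77% of the state 4 bins of SD 3m (47686 of 826207) were SD-only losses, compared to 0.0424% of the state 3 bins (517 of 1219378). CR-only losses came from state 4 in 95.8% and bins lost in both groups in 99.0%, so this preference was not particular to standard diet. The enhancer state with the stronger signature was thus rarely left directly for quiescent chromatin in either group.

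State 8 held 6.84% of the active enhancer bins of SD 3m at 12 months on standard diet, and 6.66% under caloric restriction. Most of these were the same bins: 60.5% of those lost in SD 12m were in state 8 in CR 12m too. SD-only losses were 2.36% of the active enhancer bins of SD 3m and CR-only losses were 2.3% (47016 bins in 6020 stretches), a ratio of 1.03. When bins within 1 kb of a remaining active enhancer bin were left out, the ratio was 0.895, and when state 5 was counted as an enhancer state it was 0.801. The direction of this small difference thus depended on the setting. Just outside the rule, 3.52% of the bins active in SD 3m and CR 12m were in the poised state 5 in SD 12m, compared to 2.64% in state 8. SD 12m had the fewest libraries for the enhancer marks, with 7 for H3K27ac and 6 for H3K4me1, compared to 8 and 8 in SD 3m and 9 and 9 in CR 12m. The read depth of the merged libraries is unknown, and the library number and the diet cannot be told apart.

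SD-only losses were mostly short and lay at the side of enhancers that remained. The stretches had a median length of 1000 bp, a mean of 1512 bp and a maximum of 16600 bp. Single bins made up 16.7% of the stretches, while the 53.2% of at least 1 kb held 86.5% of the bases. In SD 12m, 57.7% (56.5 to 58.9) of the stretches touched a remaining active enhancer bin on 1 side, 9.58% on both sides and 32.7% (31.6 to 33.9) on neither. A whole active stretch of SD 3m was lost in 631 of the stretches (9.89%), compared to 813 of the 6020 CR-only stretches (13.5%) and 3691 of the 9746 stretches lost in both groups (37.9%). Counted once per SD-only stretch, the SD 3m active stretch around it had a median length of 6200 bp, compared to 2400 bp for all SD 3m active stretches. An SD 3m stretch with several losses is thus counted several times, and a longer one has more bins that can be lost. Beyond 10 kb from any active enhancer bin of SD 12m lay 8.86% of the stretches.

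**Figure D2:**
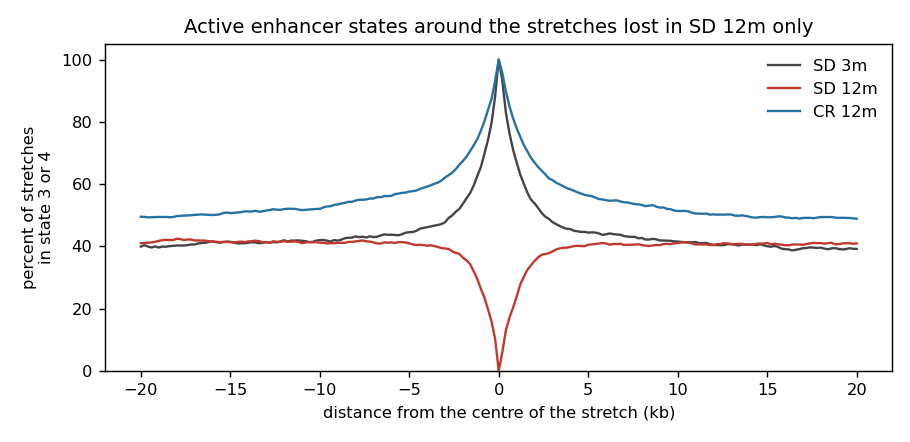
Percent of the SD-only stretches in state 3 or 4 (vertical axis) against the distance in kb from their centre (horizontal axis), with 1 line per group. At the centre the rule fixes 100% in SD 3m and CR 12m and 0% in SD 12m, and at 15 to 20 kb the lines run near 39.9% (SD 3m), 41.2% (SD 12m) and 49.5% (CR 12m).

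The surroundings of the stretches were rich in enhancers in all groups. At 15 to 20 kb from the centre, SD 3m had 39.9% of the bins in an active enhancer state, SD 12m 41.2% and CR 12m 49.5%. Over all autosomal bins the shares were 16.6%, 20.4% and 21%, respectively. These flanks hold further bins that meet the rule, which fixes their states, so the shares were also taken without SD-only and CR-only bins, a setting chosen after seeing the data. In the remaining 95.7% of the flanking bins the shares were 37.2%, 41.9% and 48.5%. Around CR-only losses they were 35.5% for SD 3m, 44.6% for SD 12m and 39% for CR 12m in the same setting. Neighbouring bins are not independent, and the states of a bin used by the rule and of those around it come from the same libraries, so these shares are a description.

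Loss was more frequent towards the ends of an enhancer. Among state 4 bins at the end of an SD 3m active stretch 10.1% were SD-only losses, compared to 2.96% of those more than 40 bins away from the end. Bins lost in both groups had a steeper gradient, from 28.0% to 2.45%, and CR-only losses a similar one to SD-only losses, from 8.87% to 2.22%. By the length of the SD 3m stretch, the SD-only share of state 4 bins was 9.67% in stretches under 1 kb and 4.65% in those of 10 kb or more. The latter nevertheless held 48.1% of the SD-only state 4 bins, as they held 492592 of the 826207 state 4 bins.

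**Figure D3:**
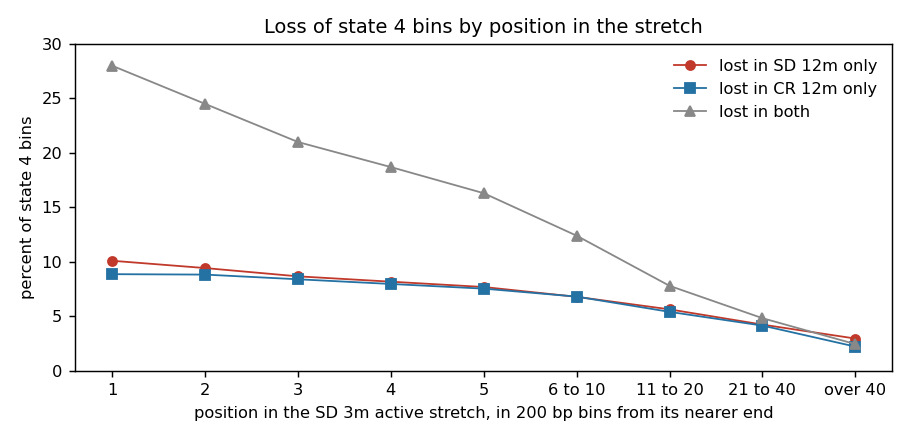
Percent of the state 4 bins of SD 3m that were lost (vertical axis) against their position, in bins of 200 bp from the nearer end of the active stretch (horizontal axis). All 3 lines fall from the end inwards, from 10.1% to 2.96% for losses in SD 12m only.

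SD-only losses were spread over the genome. They ranged from 1.14% of the active enhancer bins on chromosome 11 to 3.39% on chromosome 13, and 1500 of the 1919 blocks of 1 Mb with active enhancer bins held at least 1 (78.2%). The 100 blocks with most losses held 28.3% of the bins, led by a block of chromosome 12 (32000001 to 33000000) with 332 bins, in which the stretch upstream of Gm40376 lies. SD-only losses outnumbered CR-only losses on 13 of 19 autosomes. The ratio of the losses varied from 0.412 on chromosome 10, where CR-only losses reached 4.21% of the active enhancer bins, to 1.6 on chromosome 8. Leaving out chromosome 10 gave a ratio of 1.09.

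**Figure D4:**
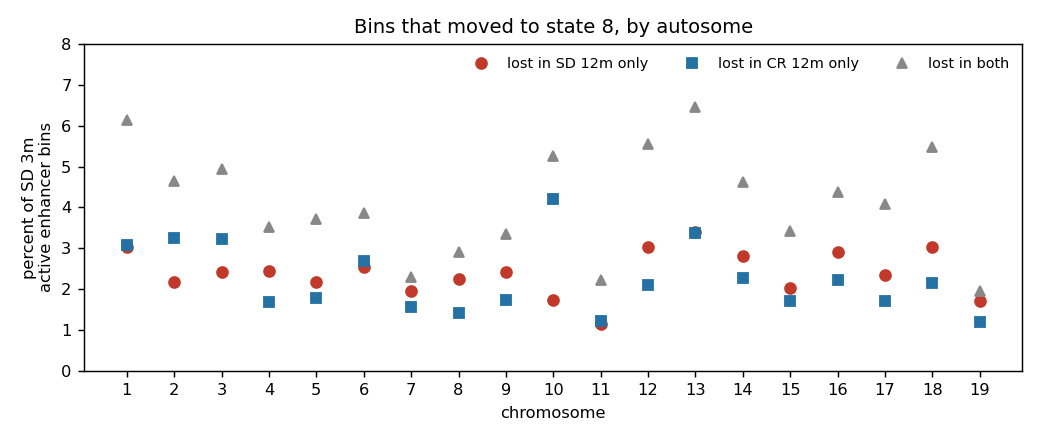
Percent of the SD 3m active enhancer bins (vertical axis) of each autosome (horizontal axis) lost in SD 12m only, in CR 12m only or in both. Losses in both groups are the most frequent on every autosome, and on chromosome 10 the CR-only share (4.21%) stands above the SD-only share (1.74%).

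The lost bins lay mostly in introns, and farther from promoters than kept ones. Introns held 58.0% of them, compared to 58.6% of bins lost in both groups, 49.1% of CR-only losses and 36.2% of all autosomal bins. Of kept bins 58.1% were in introns, but of those in state 4 in SD 3m (kept state 4 bins) 51%. Regions between genes held 33.9% of the lost bins and exons 5.75%, compared to 39% and 6.21% of kept state 4 bins. Within 2 kb of a TSS lay 2.36%, compared to 5.11% of kept bins and 3.82% of kept state 4 bins. The median distance from the centre of a stretch to the nearest TSS was 26.7 kb, close to the 27.2 kb of CR-only losses, below the 33.9 kb of the stretches lost in both groups and above the 14.5 kb of stretches kept in all groups. Bodies of protein-coding genes held 62.9% of the bins, close to the 62.7% of bins lost in both groups and the 62.3% of kept bins. The share was 56.6% for kept state 4 bins and 50.9% for CR-only losses. Of the SD-only bins in gene bodies, 72.8% were in genes whose TSS was in state 1 or 2 in SD 3m, and 75.2% of the kept state 4 bins were. The nearest TSS belonged to the gene that held the stretch in only 56.5% of the stretches inside coding genes, so the gene named by proximity is often not the gene around the stretch. Adgrv1 (187 bins, 37.4 kb), Bmper (172 bins) and Robo1 (164 bins) held the most lost bins in their bodies.

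In GC content the lost bins stood between the kept bins and those lost in both groups. It was 42.0%, compared to 39.5% for bins lost in both groups, 40.7% for CR-only losses and 43.8% for state 4 bins kept in all groups. SD-only losses were higher in GC than both other kinds of loss on 19 of 19 autosomes and lower than kept state 4 bins on 19 of 19. By autosome their GC content ranged from 41.0% to 43.1%. Repeats made up 28.1% of their bases and 29.8% of those of kept state 4 bins.

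The motif letters were counted on both strands, and matches that overlapped were each counted. The E box CACGTG was in 2.25% of the SD-only bins, 1.86% of those lost in both groups, 2.10% of CR-only losses and 2.57% of kept state 4 bins, with 1.99% over all autosomal bins. The ETS motif CCGGAAG had the same order, with 0.533%, 0.397%, 0.453% and 0.668% (0.579% of all bins). The nuclear receptor motif AGGTCA was in 11.4% of the SD-only bins and 10.2% of those lost in both groups (11.1% of all bins). AT-rich motifs had the opposite order. GATA was in 13.1% of the SD-only bins and 14.8% of those lost in both groups (13.2% of all), HNF1 in 7.92% and 9.64% (8.04% of all), and the interferon-response core GAAANNGAA in 7.30% and 8.21% (7.83% of all). The FOXA motif was in 3.34% of the SD-only bins, 3.54% of those lost in both groups, 3.38% of CR-only losses and 2.77% of kept state 4 bins (2.98% of all). In the same order, the C/EBP motif was in 8.37%, 9.23%, 8.73% and 7.53% (8.73% of all). The HNF4 motif CAAAGTCCA was in 0.278% of the SD-only bins, 0.217% of those lost in both groups and 0.253% of kept state 4 bins (0.257% of all), and the NFI motif in 9.62%, 9.47% and 9.19% (9.83% of all), so these motifs did not follow the order of GC content. The STAT motif TTCNNNGAA was in 6.42% of the SD-only bins, 7.07% of those lost in both groups, 6.89% of CR-only losses and 5.91% of kept state 4 bins (7.36% of all). In the same order, AP-1 was in 3.41%, 3.27%, 3.38% and 3.4% (3.14% of all). GC content moves with most of these shares, and its part in them was not tested.

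Of the 16975 genes with an active enhancer bin of SD 3m nearest to their TSS, 3674 (21.6%) had an SD-only stretch. A single stretch was assigned to 2280 of them and 6 or more to 85. The genes with the most lost bins were Gm40376 (209 bins of 602), Bmper (172 of 470), which encodes a modulator of BMP signalling, and 9330111N05Rik and Robo1 (166 each). Robo1 (chromosome 16, 72663149 to 73046100), the receptor of SLIT guidance proteins, had its losses in 15 stretches and 0 CR-only bins, and its TSS had state 4 at 3 months, state 8 at 12 months on standard diet and state 1 under caloric restriction. Maf, a bZIP transcription factor, had 150 lost bins and also 0 CR-only bins. A count of 0 was the common case, as 33.7% of the genes with an SD-only stretch had CR-only bins. Among genes with at least 50 active enhancer bins, the highest shares were 96.7% near Tmem267, 92.7% near Gm30667 and 87.9% near Zfp648. Igf2bp3, an RNA-binding protein of fetal tissues, had lost 73.7% of its 133 bins, Gpr160, an orphan receptor, 76.0% of 100, and Fbln7, a matrix protein, 77.4% of 53. These genes were ranked by the losses themselves.

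Near genes of hepatocyte function, CR-only losses and losses in both groups were less frequent than over all genes. In the 7 lists of such genes (plasma proteins, lipid synthesis, lipid oxidation, glucose and amino acid metabolism, cytochrome P450, conjugation and transport, transcription factors), 0% to 0.875% of the active enhancer bins were CR-only losses, compared to 2.30% over all genes. Bins lost in both groups made up 0.311% to 1.67%, compared to 4.14%. SD-only losses made up 0.998% to 3.80%, on either side of the 2.36% over all genes. Their share was above the CR-only share in each of these lists, but for glucose and amino acid metabolism only through 1 gene, given below. The lists also differed in how many of their active enhancer bins were in state 4, from 27.4% to 46.2%, compared to 40.4% over all genes. Per 100 state 4 bins, SD-only losses made up 3.24 to 10.6, compared to 5.83 over all genes. On this scale lipid synthesis was above all genes (6.01), transcription factors near them (5.67) and cytochrome P450 below (5.22). The CR 12m segmentation merged the most H3K27ac and H3K4me1 libraries, and the part of their number in the low CR-only share was not tested. A few genes carry much of a list's count, as the values without the leading gene show below, and these shares are descriptions of bins with no test. Shares of genes with an SD-only stretch, also given below, were not adjusted for the number of active enhancer bins per gene. A gene with more of them has more that can be lost.

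**Figure D5:**
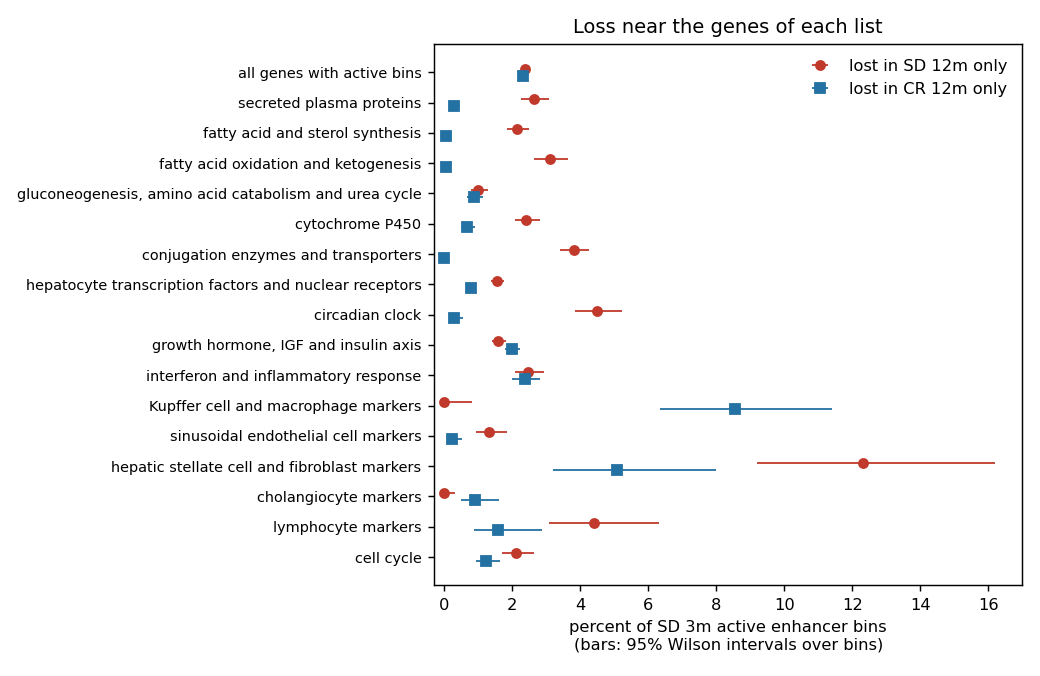
Percent of the SD 3m active enhancer bins nearest to the genes of each list (rows) that were lost in SD 12m only or in CR 12m only (horizontal axis), with 95% Wilson intervals over bins. For conjugation enzymes and transporters 3.80% were lost in SD 12m only and 0% in CR 12m only. The order is turned round for Kupffer cell markers, cholangiocyte markers and the growth hormone, IGF and insulin axis.

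Conjugation enzymes and transporters, which clear drugs and bile acids, had 281 SD-only and 0 CR-only bins of 7388. The Wilson interval of this count of 0 reaches 0.052%, and it too treats neighbouring bins as independent. Abcg2, an efflux transporter (chromosome 6, 58584533 to 58692449), had lost 86 of 209 bins (41.1%), and without it the list was at 2.72%. Slco1a1, a carrier that takes up organic anions from blood, had lost 57 of 329 bins, and its relative Slco1b2 had lost 20. Of 47 genes in this list, 15 (31.9%, 20.4 to 46.2) had an SD-only stretch, compared to 21.6% of all genes.

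In fatty acid and sterol synthesis 172 bins were SD-only and 4 CR-only of 8038 (2.14% and 0.0498%). An SD-only stretch was found at 11 of 39 genes (28.2%, 16.5 to 43.8), compared to 21.6% of all genes. Per active enhancer bin, the 2.14% of this list was below the 2.36% over all genes. Lpin1, a phosphatidate phosphatase, had lost 46 of 251 bins in 3 stretches, and Lss, lanosterol synthase, had lost 18. In fatty acid oxidation and ketogenesis 148 bins were SD-only and 2 CR-only of 4768 (3.10% and 0.0419%). Here 7 of 38 genes (18.4%, 9.22 to 33.4) had an SD-only stretch. Acaa2, the mitochondrial thiolase, contributed 57 bins in 7 stretches, and without it the list was at 2.03%. Etfa, a subunit of the electron transfer flavoprotein, had lost 42 bins and Cyp4a14, a fatty acid hydroxylase, 23.

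Among cytochrome P450 genes 13 of 48 (27.1%, 16.6 to 41) had an SD-only stretch, compared to 21.6% of all genes. In bins, 158 (2.41%) were SD-only, compared to 0.671% CR-only. Cyp7a1, the rate-limiting enzyme of bile acid synthesis (chromosome 4, 6265612 to 6275632), had lost 27 of 294 bins in 5 stretches, and its TSS had moved from state 3 to the poised state 5 in SD 12m but not in CR 12m. Cyp2c68 had lost 23 bins. Secreted plasma proteins had 12 of 50 genes with an SD-only stretch (24%, 14.3 to 37.4), near the share of all genes. Their bins were SD-only in 2.63% and CR-only in 0.285%. C8a of the complement system led with 25 SD-only bins, before the anticoagulant Proc with 23 and the kininogen Kng1 with 15. The list of gluconeogenesis, amino acid catabolism and the urea cycle had like shares, with 0.998% SD-only and 0.875% CR-only. Glul, glutamine synthetase, held 38 of its 65 SD-only bins, 4 of its 57 CR-only bins and 46 of its 59 bins lost in both groups. Without Glul the SD-only share of the list was 0.434%, below the 0.875% that was CR-only with Glul counted. Gstz1 and Pygl, the liver glycogen phosphorylase, held 10 and 8 SD-only bins.

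Regulators were mixed. Near circadian clock genes 152 of 3395 bins (4.48%) were SD-only, 10 (0.295%) CR-only and 281 (8.28%) lost in both groups. Of the 25 genes, 9 (36%, 20.2 to 55.5) had an SD-only stretch, compared to 21.6% of all genes. Hlf, a bZIP factor of the clock output, had 50 SD-only bins, Bhlhe41, a repressor within the clock, 45, and Clock itself 14. Near Clock more bins, 23, were lost in both groups, compared to 2 near Hlf and 1 near Bhlhe41. Near hepatocyte transcription factors and nuclear receptors the SD-only share was 1.55% and the CR-only share 0.783%. Nr2f2 accounted for 120 of the 272 bins there, and without it the SD-only share was 0.996%. In that list, Nr5a2 had 40 SD-only bins of 929, 16 CR-only bins and 34 lost in both groups. Nr3c1, the glucocorticoid receptor, had 32 SD-only bins of 1661, fewer than its 52 CR-only bins, and 26 lost in both groups. The growth hormone, IGF and insulin axis had 1.58% SD-only and 1.99% CR-only. Near Pik3r1, a regulatory subunit of PI3-kinase, lay 100 SD-only bins and 319 lost in both groups. Ghr and Insr, the receptors of growth hormone and insulin, had 29 and 28 SD-only bins, and 98 and 0 lost in both groups. Interferon and inflammatory response genes were at 2.46% and 2.36%, near the shares over all genes, with Crp (38 bins), Apcs (26) and Tlr2 (22) in front. Bins lost in both groups numbered 16, 7 and 30 near these genes, respectively. Cell cycle genes were at 2.12% and 1.23%, with SD-only bins near E2f7 (34), Mcm6 (21) and E2f3 (12). Near Mcm6, 88 bins were lost in both groups, compared to 14 near E2f7 and 0 near E2f3.

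Markers of other liver cells had 334 to 2527 active enhancer bins per list, and their SD-only bins lay near at most 3 genes of a list. Fewer cells of a type and a loss of the mark within them cannot be told apart in bulk liver. Kupffer cell and macrophage markers had 0 SD-only bins of 468 in 8 genes, with a Wilson interval up to 0.814%. They had 40 CR-only bins (8.55%) in 3 genes and 63 bins lost in both groups (13.5%). Cholangiocyte markers had 0 of 1222, with an interval up to 0.313%, and 11 CR-only bins. Both intervals treat neighbouring bins as independent, so neither is a firm bound. Sinusoidal endothelial cell markers had 33 (1.31%), of which 27 were near Bmp2, 4 near Mrc1 and 2 near Stab2. They had 6 CR-only bins (0.237%) and 82 lost in both groups (3.24%), 57 of the latter near Mrc1. Hepatic stellate cell and fibroblast markers had 41 of 334 (12.3%), of which 30 were near Acta2, smooth muscle actin, and 11 near Reln. This list also had 17 CR-only bins (5.09%), all near Acta2, and 20 bins lost in both groups (5.99%). Lymphocyte markers had 28 SD-only bins, all near Zap70, a kinase of the T cell receptor, 10 CR-only bins (1.57%) and 44 lost in both groups (6.93%).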

How the data were processed

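The deposited files hold, for every 200 bp bin of chromosomes 1 to 19 and X, a category and no number: the label of 1 of 8 chromatin states, which the authors made by aligning reads to mm10 with BWA (0.6.2-r126, per the labels), filtering them with SAMtools (0.1.18), merging the libraries of each group and mark, and training ChromHMM. The labels were used as deposited, so they carry the authors' threshold for calling a mark and the model's smoothing, and depth is unknown. Bins were assigned to the TSS nearest to their midpoint and stretches to the TSS nearest to their centre, with 1 TSS for each of 26089 RefSeq genes of GRCm38.p6 (longest curated transcript). GC content, repeats (bases in lower case) and motifs were read from bins without unassembled bases. Python 3.11.15, numpy 2.4.6, scipy 1.17.1 and matplotlib 3.10.9 were used, and the functions were tested on simulated segmentations. Genes were named as nearest to the 10 longest stretches, as the 10 with most lost bins, as the 10 with the highest share among those with at least 50 active enhancer bins, as the 3 with most lost bins per list, and Alb, Apoa1 and Cyp7a1. Genes whose bodies hold stretches were named after their values were seen. Some genes that the rule picks are not reported here. The regions and the 16 gene lists were chosen with earlier results of these data known. Groups were taken from the labels.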

Additional observations from a re-analysis of the deposited data

How the results depend on the processing

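No paired analysis was possible because the libraries of a group were merged before states were assigned. An alternative was counted as a move when it left the Wilson 95% interval of the value, which is narrow for bins. With stretches of at least 1 kb, the SD-only share of active enhancer bins was 2.04%, the share in state 4 99.4%, the median distance to a TSS 29.3 kb, the GC content 42.0%, the share of stretches next to an active enhancer bin 69.8% (67.3% with all stretches) and the share of genes with a stretch 13.3%. Without bins within 1 kb of an active enhancer bin, the SD-only share was 1.41%, the ratio of SD-only to CR-only bins 0.895, which turned its direction, the median distance 29.4 kb and the GC content 41.7%. With state 5 as an enhancer state, these were 2.90%, 0.801, again turned, 29.8 kb and 42.9%, with 67.2% in state 4 and 80.7% of stretches next to an active enhancer bin. With states 6 and 7 counted as lost, the ratio was 0.996 and the GC content 42.0%. Adding chromosome X left each of the 6 values within its interval. Without chromosome 10, chosen after seeing the data, the share was 2.39% and the ratio 1.09. With protein-coding TSS only, the median distance was 31.2 kb and the share of genes 24.4%, and with every curated transcript the distance was 25.5 kb. Of 32 shares of single gene lists under the length and TSS alternatives, 30 stayed within their intervals. These intervals rest on few genes and are wide, so staying within one does not show that a share was stable. With protein-coding TSS only, transcription factors moved from 16.4%, below all genes (21.6%), to 29.1%, above them (24.4%). With stretches of at least 1 kb, sinusoidal endothelial cell markers moved from 17.6% to 5.88%. The cause of these moves was not tested, beyond that the length and edge settings keep fewer bins. The number of libraries and the depth behind a label limit every comparison, and all comparisons share the SD 3m segmentation.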

Other observations

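On chromosome X, which the rule leaves out, 254 of 6289 active enhancer bins of SD 3m (4.04%) were lost in SD 12m only and 31 (0.493%) in CR 12m only, a ratio of 8.19 compared to 0.412 to 1.6 on the autosomes. The values rest on few bins, as chromosome X holds little enhancer chromatin in these livers.

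Among the 3674 genes nearest to SD-only stretches, 53.8% had their TSS in state 1 or 2 in SD 3m, compared to 58.0% of all 16975 genes with active enhancer bins. In SD 12m these shares were 48.4% and 50.5%, and in CR 12m 44.0% and 44.6%. The shares with the TSS in state 8 were 15% and 10.2% in SD 3m, 17.7% and 10.3% in SD 12m and 15.7% and 10.8% in CR 12m. Bins lost in both groups were found at 2164 of the 3674 genes (58.9%), compared to 26.5% of all genes, and CR-only bins at 1238 (33.7%), compared to 19.4%. The 3674 genes were picked by having a loss, and a gene with more active enhancer bins has more that can be lost in any of these ways. The shares were not adjusted for this, and no test was made of these differences.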
